A study of Mus musculus with 12 samples.

Results

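The mRNAs of MHC class I presentation and of the immunoproteasome were examined in 12 RNA sequencing libraries of a dendritic cell (DC) line. The 10 genes were chosen by name, for their role, with earlier results of these data known. They were H2-K1, H2-D1, B2m, Tap1, Tap2, Tapbp, Psmb8, Psmb9, Psmb10 and Nlrc5, of 55401 genes in the count table. All 10 passed the filter on low values, as did 14079 genes in all. They were measured in Sp37A3 cells, an immature DC line grown from the spleen of a C57BL/6 mouse. CtrV cells carried an empty CRISPR lentiviral vector, and EKO cells were a pool of several single-cell clones edited at Siglece, so neither is a panel of independent lines. Cells of both lines grew with GM-CSF and M-CSF and received LPS for 24 h, and therefore no group was free of LPS. They were either unpulsed or pulsed for 2 h with 0.1 mg/ml ovalbumin (OVA), with 3 libraries in each of the 4 groups.

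MHC class I molecules show peptides from the cell interior to CD8 T cells. The proteasome cuts proteins into peptides, the TAP transporter carries them into the endoplasmic reticulum, and tapasin helps to fit them into the groove of a heavy chain bound to beta-2 microglobulin. Interferons replace the catalytic subunits of the constitutive proteasome by inducible ones and raise most other genes of the pathway, while NLRC5 acts at class I promoters. DCs use the same machinery to present antigen taken up from outside, which is called cross-presentation.

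Library totals lay between 27116201 and 39698572 counts, so that a floor of 3 counts corresponded to 0.0785 to 0.110 CPM (counts scaled to library size after edgeR's TMM normalization). This floor covers counting error only. Of 11 DC markers, 10 were above 1 CPM in every library, and the exception was Flt3 (0.997 to 7.85 CPM). The summed level of the 11 was between 24810 and 27960 CPM, most of it from the class II gene Cd74 (13960 to 18270 CPM). Lists of T cell, B cell, NK cell, neutrophil and erythroid markers each summed to at most 1.07 CPM, with Cd3e, Cd3g, Trac, Ncr1, Ly6g and Hbb-bs at 0. The B cell list (3 genes) was at 0.0358 to 0.212 CPM in CtrV and 0.450 to 1.07 CPM in EKO-labelled libraries and the T cell list (5 genes, mainly Cd4) at 0.0302 to 0.141 and 0.183 to 0.642 CPM, and their part in the results was not tested. Of 4 fibroblast or epithelial markers only Epcam was above the floor in every library (20.8 to 33.0 CPM). Siglece, the edited gene, had 150 to 163 CPM in CtrV libraries and 166 to 235 CPM in the others. Its mRNA was not lower there but higher, by 0.31 on the log2 scale with OVA and 0.41 without (adjusted p = 0.0106 and 0.00261, edgeR's quasi-likelihood test). For this reason those libraries are called EKO-labelled. The paper states that the pooled clones had been checked and had little or no Siglec-E expression. Whether the protein was lost cannot be read from these mRNA counts. The labels give only replicate numbers and do not say whether each library came from its own culture. The p-values below therefore measure the spread between these libraries, which may be partly technical.

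On the GRCm38 annotation, 7 of the 10 genes lay on chromosome 17 in the MHC region. H2-K1 (ENSMUSG00000061232) ran from 33996017 to 34000347 on the minus strand and H2-D1 (ENSMUSG00000073411) from 35262730 to 35267499 on the plus strand. Tapbp (ENSMUSG00000024308) ran from 33915899 to 33929292. Psmb9 (ENSMUSG00000096727, 34181987 to 34187764, minus strand), Tap1 (ENSMUSG00000037321, 34187553 to 34197225), Psmb8 (ENSMUSG00000024338, 34197721 to 34201454) and Tap2 (ENSMUSG00000024339, 34203527 to 34216321) followed each other without a gap of more than a few kilobases. B2m (ENSMUSG00000060802) lay on chromosome 2 from 122147686 to 122153083, and Nlrc5 (ENSMUSG00000074151, 94434356 to 94527272) and Psmb10 (ENSMUSG00000031897, 105935735 to 105938444, minus strand) on chromosome 8.

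Promoters of 8 of the 10 genes, all but Tap2 and Nlrc5, were read in 9 windows of 250 bases before the start site (RefSeq, GRCm38.p6). These starts differ in part from the gene bounds given above. The windows of H2-D1, Tapbp, Psmb8 and Psmb9 lie within those bounds. The stretches printed here are those of the pair of heavy chains, of which only H2-K1 passed the test between the lines described below, and of their light chain. Capitals mark matches to letters searched on both strands: AANNGAAA (an interferon regulatory factor core), the kappa B consensus, TGACG (as in cyclic AMP response elements and the X2 box), ATTGG (the Y box, CCAAT on the other strand) and TTCNNNGAA (a STAT site, GAS). H2-K1 is shown from chr17:34000359-34000458 (minus strand), 2 parts of H2-D1 from chr17:35262923-35262951 and chr17:35262993-35263022 (plus strand), and B2m from chr2:122147550-122147638 (plus strand).
H2-K1: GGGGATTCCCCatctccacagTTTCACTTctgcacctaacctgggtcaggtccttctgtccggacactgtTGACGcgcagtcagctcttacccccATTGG
H2-D1, kappa B and interferon core: GGGGATTCCCCatctcctcagTTTCACTT
H2-D1, TGACG and Y box: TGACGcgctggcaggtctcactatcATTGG
B2m: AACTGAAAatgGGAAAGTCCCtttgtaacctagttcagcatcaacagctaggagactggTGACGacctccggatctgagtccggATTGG
From the kappa B match to the Y box, H2-K1 and H2-D1 were identical at 89 of 100 positions without a gap. Both held the kappa B match, the interferon core 21 bases further on, TGACG 49 bases after that and the Y box after another 25 bases. In B2m the interferon core came first, and TGACG and the Y box were again 25 bases apart. Tap1 and Psmb9 are read in opposite directions. The 225 bases between their RefSeq starts held a Y box match near the Psmb9 start and 1 match to TGACG. By the gene bounds given above, Tap1 and Psmb9 overlap and have no such space. Matches to the interferon core and to kappa B were found in H2-K1, H2-D1 and B2m, 3 of the 8 genes, beside 21.3% and 7.25% of all 32851 promoters. A GAS match was found in Psmb8 alone (7.02% of all promoters), TGACG in 5 of the 8 genes (17.8%) and the Y box in 6 (33.9%), with the matches of Tap1 and Psmb9 being the same bases. Psmb10 matched none of the 5. These matches describe the letters in these windows and are no evidence of binding.

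Levels of different genes were compared per kilobase of annotated exon, since a longer transcript gives more counts. In each group B2m mRNA was the highest of the 10, with a mean of 811 CPM per kilobase in unpulsed CtrV cells and 1213 in unpulsed EKO-labelled cells, and H2-D1 was next (315 and 339). Nlrc5 was the lowest, at 2.92 and 12.0 CPM per kilobase. With the exon lengths used, some neighbours in this order changed places between the lines. H2-K1 and Tapbp overlapped in CtrV libraries (82.2 to 106 and 85.5 to 93.3 CPM per kilobase without OVA), while EKO-labelled libraries had more H2-K1 than Tapbp without overlap in both states (172 to 207 and 95.8 to 111 without OVA). Psmb10 was above Psmb8 on average in CtrV cells, with overlapping libraries only when unpulsed, and Psmb8 was above Psmb10 in all EKO-labelled libraries. Tap2 was above Tap1 in CtrV cells, again with overlap in 1 state (OVA), and below it in EKO-labelled cells without overlap. Psmb10 and Tap1 overlapped in EKO-labelled libraries, as did Tapbp and Psmb8, and Tap1 and Psmb9 overlapped in unpulsed CtrV libraries. The exon lengths are unions over all annotated transcripts (3660 bases for Psmb9, whose longest coding transcript has 1352). They set the order in part but not a gene's differences between groups. The changes of place rest on these lengths. Tap1 has 5476 union bases and 2953 in its longest coding transcript, and Tap2 has 3781 and 3442. With transcript lengths, H2-K1, Psmb8 and Tap1 would have the higher mean of their pairs in CtrV cells too.

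**Figure D1:**
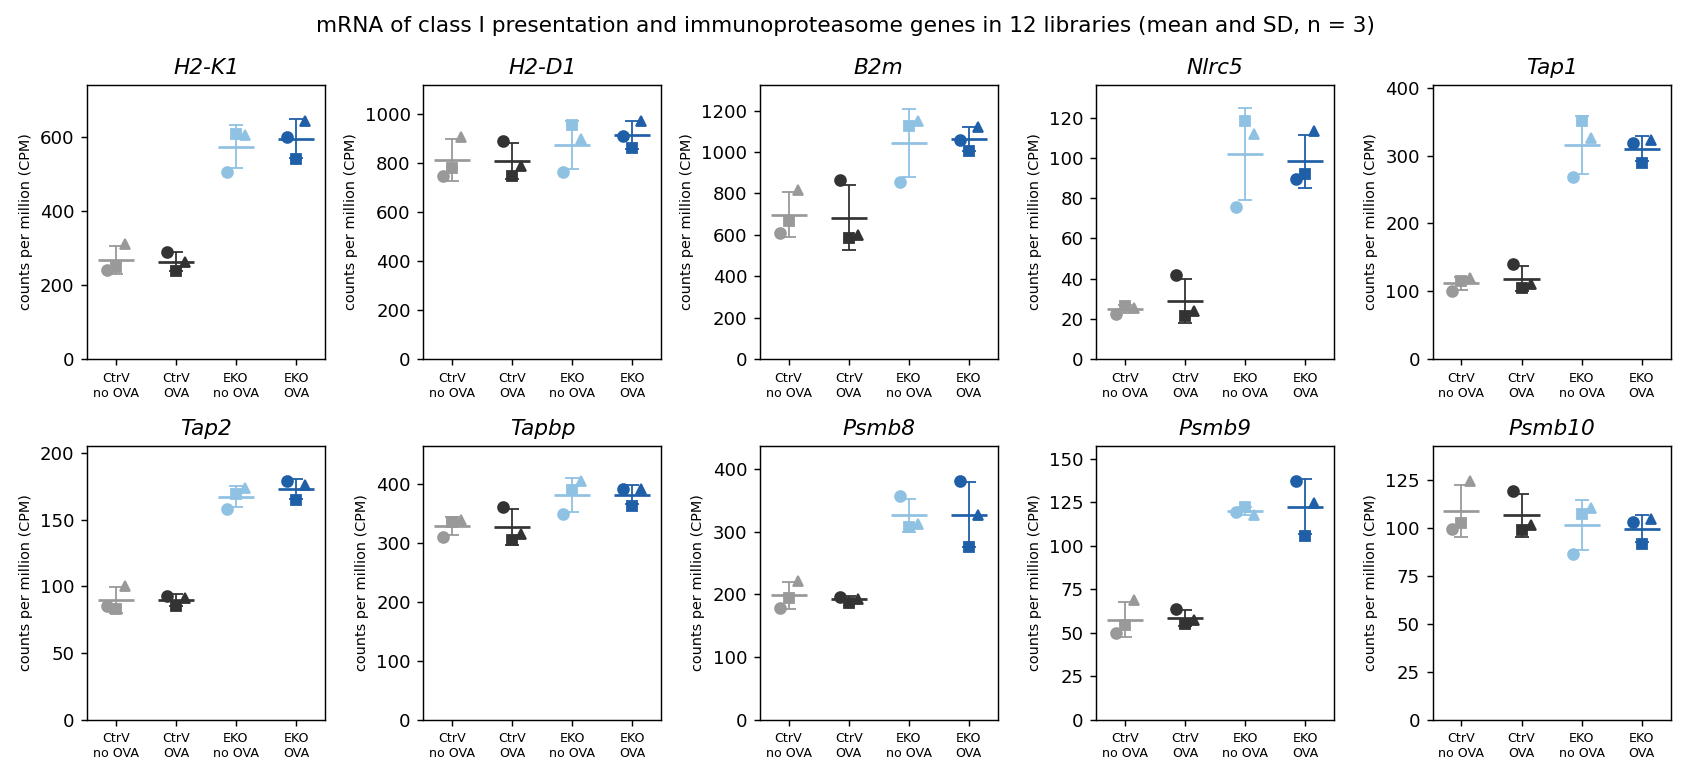
Level of each of the 10 mRNAs in CPM (y axes from 0) in the 12 libraries, with circles, squares and triangles for replicates 1, 2 and 3, horizontal lines for group means and error bars for the SD (n = 3). For H2-K1, Nlrc5, Tap1, Tap2, Psmb8 and Psmb9 the EKO-labelled libraries stand well above the CtrV libraries, while those of H2-D1 and Psmb10 overlap.

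To see whether the class I genes differed between the lines, EKO-labelled cells were compared with CtrV cells in each pulsing state. Of the 10 genes, 8 were higher with OVA and 8 without (edgeR's quasi-likelihood test, p-values adjusted by Benjamini-Hochberg over 14079 genes, limit 0.05), and 0 were lower. The genes called were H2-K1, B2m, Nlrc5, Tap1, Tap2, Tapbp, Psmb8 and Psmb9 in both states, and the remaining 2 were H2-D1 and Psmb10. The states cannot be taken as independent repeats. Over all genes, same-numbered libraries of the states deviated together in EKO-labelled cells (correlations of 0.706, 0.351 and 0.411) and less in CtrV cells (0.0775, 0.179 and 0.373). Over all genes tested, 25.1% were called higher and 21.9% lower with OVA, and 24.5% higher and 21.9% lower without. The median log2 fold change of the 10 genes was 0.86 with OVA and 0.81 without, beside 0.00 over all genes tested in both states. For the same 8 genes every EKO-labelled library was above every CtrV library of its state, as was the case for 27.0% of all genes with OVA and 24.1% without. For Tapbp this rested on a narrow gap, 362 against 361 CPM with OVA. In these bulk libraries more RNA per cell and more cells carrying an RNA cannot be told apart.

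**Figure D2:**
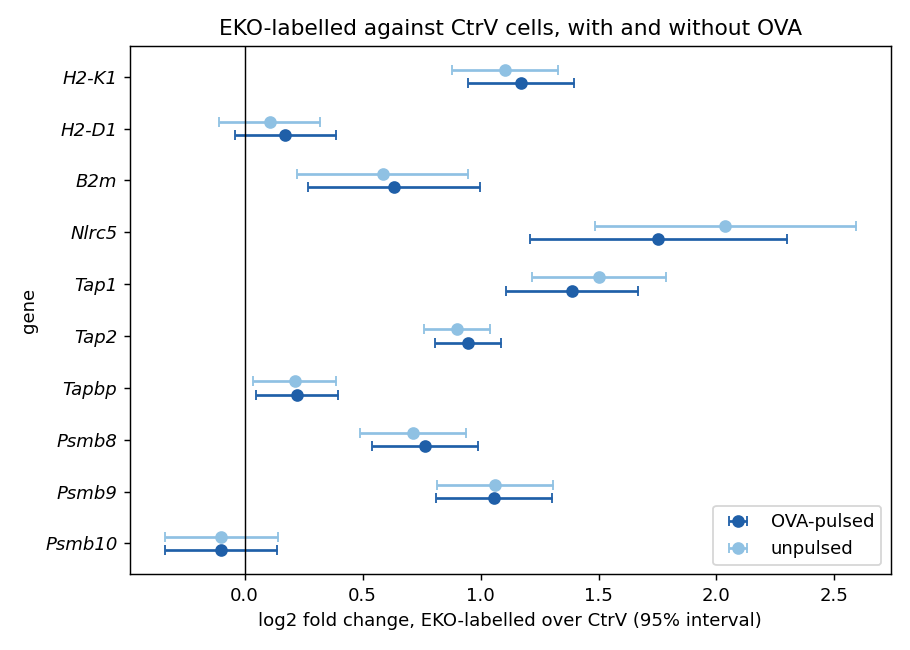
Log2 fold change of EKO-labelled over CtrV cells (x axis) for each of the 10 genes, with OVA (dark) and without (light). Points are edgeR estimates and bars their 95% intervals. The values run from -0.10 for Psmb10 to 1.75 with OVA and 2.04 without for Nlrc5, and the intervals of H2-D1 and Psmb10 include 0.

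The class I heavy chain H2-K1, which presents peptides to CD8 T cells as H-2Kb, was higher in EKO-labelled cells. It had 241, 250 and 312 CPM in unpulsed and 290, 238 and 262 CPM in OVA-pulsed CtrV libraries (replicates 1, 2 and 3). The EKO-labelled libraries reached 506, 607 and 606 CPM when unpulsed and 600.5, 539.5 and 643.5 CPM when pulsed. No EKO-labelled library overlapped with a CtrV library. H2-K1 rose by 1.17 on the log2 scale with OVA (SE 0.10, adjusted p = 5.9e-06, edgeR) and by 1.10 without (SE 0.10, adjusted p = 9.8e-06), which is 2.25-fold and 2.15-fold.

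H2-D1, the other classical heavy chain of this mouse strain, did not pass the test in either state. CtrV libraries had 750, 782 and 908 CPM when unpulsed and 892, 749 and 789 CPM when pulsed, while EKO-labelled libraries had 764, 957 and 901 CPM and 910, 862 and 974 CPM. The groups overlapped in both states. The log2 fold change was 0.17 with OVA (95% interval -0.04 to 0.39, adjusted p = 0.167, edgeR) and 0.11 without (-0.11 to 0.32, adjusted p = 0.403), so that a rise of more than 1.31-fold lies outside the interval. Leaving out replicate 1 of OVA-pulsed CtrV cells, which was its highest, gave 0.30 with OVA (adjusted p = 0.0175), and H2-D1 then passed the test.

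The unequal change of the pair was tested as a ratio within each library, which needs no library size. H2-K1 per kilobase was 0.280 to 0.301 of H2-D1 in unpulsed and 0.278 to 0.292 in OVA-pulsed CtrV libraries. In EKO-labelled libraries the ratio was 0.557 to 0.590 without OVA and 0.549 to 0.580 with OVA. The size of this ratio depends on the exon lengths used, and its log2 difference between the lines does not. The exon unions of H2-K1 and H2-D1 have 2938 and 2579 bases, and their longest coding transcripts 1619 and 2102. The log2 ratio was 1.00 higher in EKO-labelled cells, in 6 of 6 same-numbered pairs, with p = 0.005 in an exact two-sided permutation test of the line labels within each pulsing state (400 regroupings, 0.005 being the smallest p they can give, adjusted p = 0.006 over 6 ratios). This ratio was chosen after the values had been seen. The regroupings treat the pulsed and unpulsed library of a line and number as independent, whereas same-numbered EKO-labelled libraries of the 2 states deviated together over all genes (correlations of 0.706, 0.351 and 0.411). With both states of a line and number taken as 1 unit, the exact permutation p was 0.1, the smallest that 20 regroupings can give. When each library was left out in turn, the log2 difference stayed between 0.99 and 1.01. Of the 50-base stretches of their transcripts, 8.79% of H2-K1 and 14.3% of H2-D1 also occurred in another gene's transcript, mostly in each other or in H2-Q genes, and counts of such reads depend on the location the aligner reported.

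B2m, the light chain that all class I heavy chains need, was also higher in EKO-labelled cells, with a wider spread. Unpulsed CtrV libraries had 608, 668 and 816 CPM and pulsed ones 864, 585 and 598 CPM. Unpulsed EKO-labelled libraries had 855, 1124 and 1151 CPM and pulsed ones 1057, 1006 and 1120 CPM. The lines did not overlap within a state, but the gap was narrow without OVA, and replicate 1 of OVA-pulsed CtrV cells stood well above the other 2 of its group. B2m rose by 0.63 on the log2 scale with OVA (SE 0.16, adjusted p = 0.00892, edgeR) and by 0.58 without (SE 0.16, adjusted p = 0.0136). The call was lost with OVA without replicate 2 (log2 0.52, adjusted p = 0.060) or 3 (0.48, 0.051) of OVA-pulsed CtrV cells. It was lost without OVA when replicate 1 of unpulsed CtrV cells (0.48, 0.057) or replicate 2 (0.46, 0.073) or 3 (0.54, 0.056) of unpulsed EKO-labelled cells was left out.

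Nlrc5, the transactivator of class I genes, had the largest difference of the 10. It was at 22.4, 26.6 and 25.5 CPM in unpulsed and at 41.6, 21.3 and 23.9 CPM in OVA-pulsed CtrV libraries. In EKO-labelled libraries it was at 75.7, 118 and 112 CPM when unpulsed and at 89.5, 92.0 and 113 CPM when pulsed. Replicate 1 of OVA-pulsed CtrV cells stood above the other CtrV libraries, and replicate 1 of unpulsed EKO-labelled cells below the other EKO-labelled ones. Nlrc5 rose by 1.75 with OVA (SE 0.25, adjusted p = 1.9e-04, edgeR) and by 2.04 without (SE 0.25, adjusted p = 8.0e-05), or 3.37-fold and 4.11-fold. Without that CtrV library the value with OVA was 2.23. Among 14056 tested genes ranked by CPM per kilobase, Nlrc5 was at place 10167 in unpulsed CtrV cells and 5203 in unpulsed EKO-labelled cells.

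Both chains of the peptide transporter were higher in EKO-labelled cells. Tap1 had 100.7, 115 and 119 CPM in unpulsed and 139.7, 105 and 110.5 CPM in OVA-pulsed CtrV libraries, against 269, 352 and 326.5 CPM and 319, 289 and 323 CPM in EKO-labelled libraries. Tap1 rose by 1.39 with OVA (SE 0.13, adjusted p = 8.9e-06, edgeR) and by 1.502 without (SE 0.13, adjusted p = 5.7e-06). Tap2 is its partner in the transporter. The CtrV levels of Tap2 were 85.6, 83.2 and 100.7 CPM when unpulsed and 93.1, 85.1 and 91.5 CPM when pulsed, and the EKO-labelled levels were 158, 170 and 174 CPM and 179, 165 and 176 CPM. Tap2 rose by 0.95 with OVA (SE 0.06, adjusted p = 9.4e-07) and by 0.90 without (SE 0.06, adjusted p = 1.5e-06), and it had the smallest adjusted p of the 10 in both states. In the 3 OVA-pulsed pairs of the same number the log2 difference in Tap2 was 0.94, 0.95 and 0.95. Of the exon bases of Tap2, 18.5% are shared with Gm15821 and Gm20496 on the other strand, so part of its count may belong to them.

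Tapbp, which encodes tapasin, differed little. Unpulsed CtrV libraries had 310, 335.5 and 338 CPM and pulsed ones 361, 304 and 314 CPM, and EKO-labelled libraries had 348, 389 and 404 CPM and 391, 362 and 390.3 CPM. Tapbp rose by 0.22 with OVA (SE 0.08, adjusted p = 0.0393, edgeR) and by 0.21 without (SE 0.08, adjusted p = 0.0476), or 1.17-fold and 1.16-fold. With OVA the call was lost when replicate 2 or 3 of OVA-pulsed CtrV cells or any OVA-pulsed EKO-labelled library was left out (log2 0.16 to 0.24, adjusted p up to 0.207). Without OVA it was lost in 10 of 12 such fits (adjusted p up to 0.177), that is in all but those without replicate 1 of OVA-pulsed CtrV cells or of unpulsed EKO-labelled cells. Of the exon bases of Tapbp, 29% are shared with other genes (Zbtb22 and, on the other strand, Gm19412), so part of its count may belong to them.

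The inducible proteasome subunits did not move together. Psmb8, which takes the place of Psmb5, had 178, 195 and 222 CPM in unpulsed and 196, 187 and 193 CPM in OVA-pulsed CtrV libraries. Unpulsed EKO-labelled libraries had 356, 308 and 313 CPM and pulsed ones 380.1, 275 and 326.5 CPM. Psmb8 rose by 0.76 with OVA (SE 0.10, adjusted p = 1.3e-04, edgeR) and by 0.71 without (SE 0.10, adjusted p = 2.2e-04). Psmb9, which takes the place of Psmb6, was at 49.8, 54.4 and 68.6 CPM in unpulsed and 63.8, 54.9 and 57.1 CPM in pulsed CtrV libraries, and at 119, 122 and 118 CPM and 137, 105.5 and 125 CPM in EKO-labelled libraries. Psmb9 rose by 1.06 in both states (SE 0.11, adjusted p = 2.5e-05 with OVA and 2.7e-05 without). Neither gene overlapped between the lines.

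Psmb10, which takes the place of Psmb7, overlapped in both states. It was at 99.8, 103 and 124 CPM in unpulsed and 119.5, 99.0 and 101.5 CPM in pulsed CtrV libraries, and at 86.7, 107.5 and 110.4 CPM and 103, 91.5 and 105 CPM in EKO-labelled libraries. Its log2 fold change was -0.10 with OVA (95% interval -0.34 to 0.14, adjusted p = 0.467, edgeR) and -0.10 without (-0.34 to 0.14, adjusted p = 0.485). The interval includes changes from 0.791-fold to 1.10-fold. Its sign changed, to 0.04 and 0.02, without replicate 1 of OVA-pulsed CtrV cells and without replicate 1 of unpulsed EKO-labelled cells, respectively.

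Each inducible subunit was then set against the constitutive subunit it replaces, as a ratio per kilobase of exon within each library. The size of each ratio depends on the exon lengths used, and its log2 difference between the lines does not. Psmb8 to Psmb5 was 0.467 to 0.517 in unpulsed and 0.480 to 0.534 in OVA-pulsed CtrV libraries, and 0.775 to 0.947 and 0.713 to 0.960 in EKO-labelled libraries. Psmb9 to Psmb6 was 0.192 to 0.226 and 0.205 to 0.240 in CtrV libraries, and 0.412 to 0.464 and 0.386 to 0.513 in EKO-labelled libraries. Both ratios were higher in EKO-labelled cells, by 0.75 and 1.04 on the log2 scale and in 6 of 6 pairs (exact two-sided permutation test within pulsing states, p = 0.005, adjusted p = 0.0075 over 3 ratios). Psmb10 to Psmb7 went the other way. It was 1.57 to 1.66 and 1.45 to 1.92 in CtrV libraries and 1.27 to 1.53 and 1.30 to 1.48 in EKO-labelled libraries, with a log2 difference of -0.20 and 0 of 6 pairs higher (exact permutation p = 0.01, adjusted p = 0.01). The lines overlapped with OVA, where replicate 1 of CtrV cells was the highest (1.92). When each library was left out in turn, the log2 difference lay between -0.25 and -0.14, with an exact permutation p of up to 0.045. The constitutive subunits did not pass the test, with log2 fold changes with OVA of 0.02 for Psmb5, 0.04 for Psmb6 and 0.13 for Psmb7 (adjusted p = 0.855, 0.594 and 0.0526, edgeR). With both states of a line and number taken as 1 unit, as for H2-K1 to H2-D1, the exact permutation p was 0.1 for each of the 3 ratios. This is the smallest p that design allows, and also the smallest possible within either state alone. With the OVA-pulsed libraries alone, where its lines overlapped, Psmb10 to Psmb7 did not reach it (exact permutation p = 0.2).

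**Figure D3:**
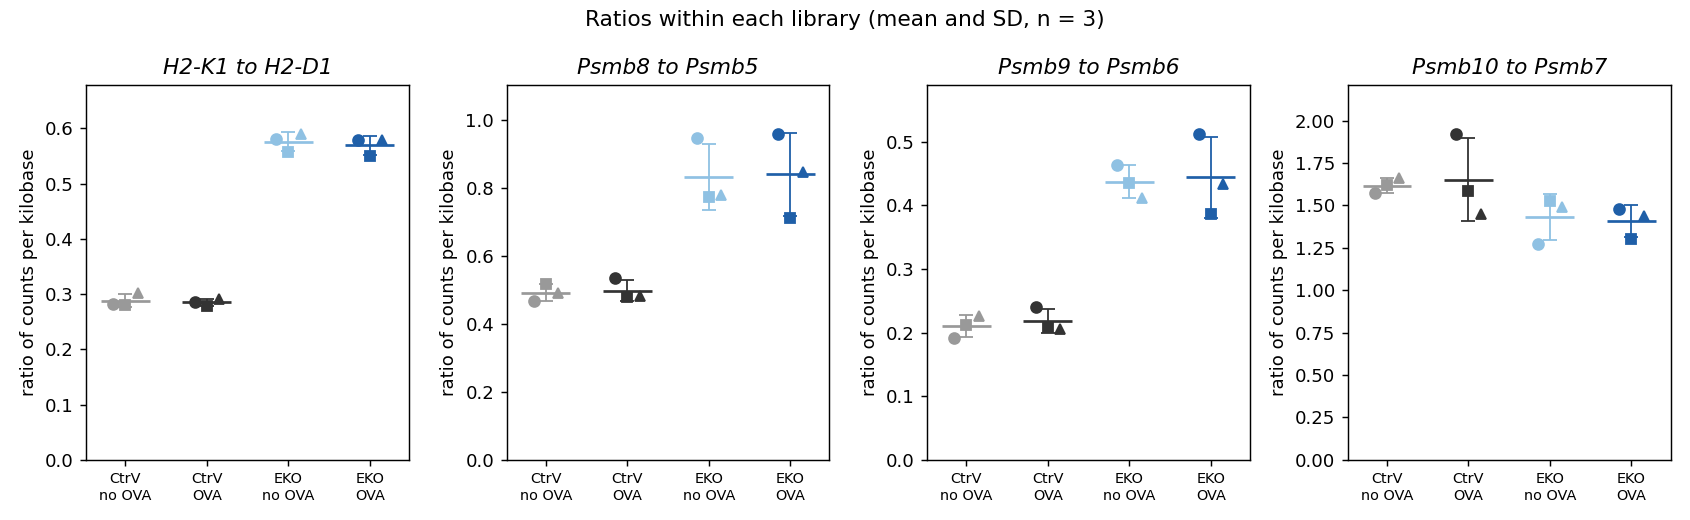
Ratios of counts per kilobase within each library for H2-K1 to H2-D1 and for the 3 inducible subunits against the constitutive subunits they replace (y axes from 0, symbols for replicates as in the plot of levels, lines and bars for mean and SD, n = 3). The first 3 ratios separate the lines without overlap. Psmb10 to Psmb7 is lower on average in EKO-labelled cells, with a mean of 1.43 without OVA and 1.41 with OVA against 1.62 and 1.65 in CtrV cells, and its lines overlap with OVA.

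Psmb8 and Psmb9 were also compared with Psmb10 directly, after the values had been seen. Psmb8 to Psmb10 was 0.84 higher and Psmb9 to Psmb10 1.16 higher on the log2 scale in EKO-labelled cells, in 6 of 6 pairs each (exact permutation p = 0.005, adjusted p = 0.006 over 6 ratios, or p = 0.1 with both states of a line and number as 1 unit). Exons of Psmb8 share 14.7% of their bases with Gm20496 on the other strand, and Psmb9 and Tap1 share 212 bases with each other on opposite strands. Psmb10 shares 0 bases. The sources used here do not give the strand setting of the counting.

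The design also asks whether OVA changed these genes or their difference between the lines. Among the 10 genes 0 passed the test for a dependence of the difference on OVA, 0 the test of OVA-pulsed against unpulsed CtrV cells and 0 that of OVA-pulsed against unpulsed EKO-labelled cells, and 0 of the 10 had an unadjusted p under 0.05 in any of the 3. Over all genes tested, 0% were called in each (edgeR), with 269, 231 and 394 genes at an unadjusted p under 0.05. Each count is below a 0.05 share of the genes tested, the share expected if no gene differed, so these tests may be conservative. The replicate block spans both lines and does not model deviations that same-numbered libraries share only within a line. With each line fitted alone, 239 genes in CtrV and 777 in EKO-labelled cells had an unadjusted p under 0.05, and 0 were called. DESeq2 and limma voom also called 0 genes for the dependence, with 103 and 297 genes at an unadjusted p under 0.05. Without replicate 1, edgeR had 870 such genes and 5 calls for the dependence, 0 of them among the 10. For H2-K1 the difference between the lines changed with OVA by 0.07 (95% interval -0.25 to 0.38 on the log2 scale), and for Nlrc5, the widest, by -0.29 (-1.04 to 0.47). These tests share their libraries with the comparisons above. The intervals are wide for Nlrc5 and B2m (-0.46 to 0.56), for which a dependence on OVA of moderate size was not detectable at this replication.

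Within groups most of the genes went up and down together from library to library. After the group means were taken out, the correlation of each gene with the mean of the other 9, over 12 libraries, was 0.94 or more for H2-K1, H2-D1 and Psmb10, between 0.74 and 0.93 for B2m, Tap1, Tap2, Tapbp, Psmb9 and Nlrc5, and 0.33 for Psmb8. Psmb10 thus followed the other genes within groups (0.96), although over all 12 libraries, where the lines dominate, its correlation with them was -0.03. In replicate 1 of unpulsed EKO-labelled cells Psmb8 was at its highest of that group (356 CPM) while H2-K1, B2m, Nlrc5 and Tap1 were at their lowest. These correlations are descriptions over libraries that share lines, cultures and scaling.

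Other genes of class I loading, trimming and the proteasome were called in both directions. Of 17 such genes tested, 7 were higher and 7 lower with OVA, beside 25.1% and 21.9% of all genes tested. Without OVA 7 were higher and 6 lower, beside 24.5% and 21.9% of all genes. The list had a median log2 fold change of 0.04 with OVA and 0.01 without. The largest changes were those of Psme2, a subunit of the PA28 proteasome activator, and Uggt1, which tests the folding of glycoproteins including class I. Psme2 rose by 1.07 with OVA (SE 0.12, adjusted p = 4.4e-05, edgeR), from 54.6 to 72.2 CPM in CtrV libraries to 112 to 142 CPM in EKO-labelled ones. Uggt1 fell by 0.56 (adjusted p = 7.0e-05), from 413 to 451 CPM to 274 to 303 CPM. The chaperone Hspa5 (log2 0.54), the peptide-trimming aminopeptidase Lnpep (0.54) and the tapasin relative Tapbpl (0.46) rose as well (adjusted p = 3.9e-05, 0.0012 and 0.00132).

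Among 21 genes of interferon, NF-kappa B and MHC regulation, 9 were higher and 3 lower with OVA, beside 25.1% and 21.9% of all genes tested. Without OVA 9 were higher and 4 lower, beside 24.5% and 21.9%. The median log2 fold change of the list was 0.14 with OVA and 0.08 without. The transcription factor Irf8 rose by 1.35 with OVA (SE 0.15, adjusted p = 4.0e-05, edgeR), from 80.1 to 117.5 CPM in CtrV libraries to 189.7 to 295 CPM in EKO-labelled ones. Stat2, which carries interferon signals to the nucleus, rose by 0.93 (adjusted p = 0.00103). The chains of the interferon gamma receptor went opposite ways. Ifngr1 fell by 1.11 (SE 0.05, adjusted p = 1.0e-07), from 186 to 208 CPM to 89.1 to 97.0 CPM, and Ifngr2 rose by 0.96 (SE 0.06, adjusted p = 3.3e-07), from 90.8 to 102 CPM to 183 to 197 CPM.

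**Figure D4:**
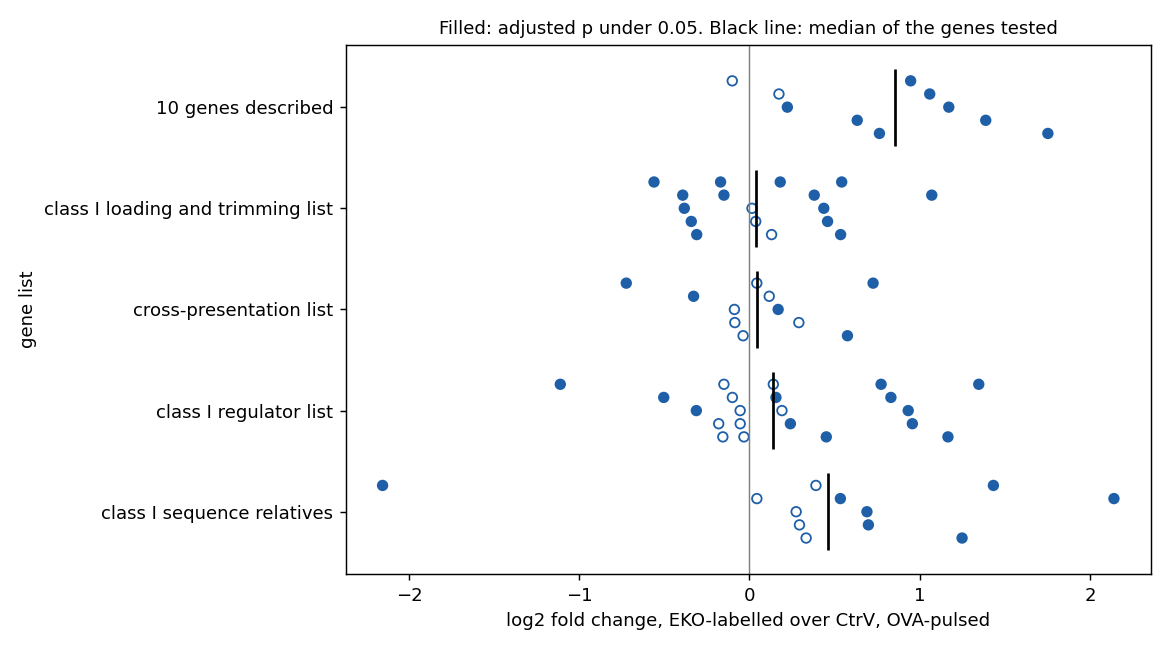
Log2 fold change of EKO-labelled over CtrV cells with OVA (x axis) for the 10 genes described and for the genes tested in 4 related lists (rows), 1 point a gene, filled where the adjusted p is under 0.05, with a black line at each median. The median is 0.86 for the 10 genes and 0.04 for 17 genes of class I loading and trimming, whose points lie on both sides of 0.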

How the data were processed

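RNA sequencing of 12 libraries of CtrV and EKO-labelled Sp37A3 cells was analysed. The authors deposited 1 table of raw counts of reads per gene. Per the submitters' processing notes and the study's methods they used STAR 2.7.0c, SAMtools 1.9 and Rsubread 2.4.3 (featureCounts) with mm10 and Ensembl 101. A read that fitted several places equally well was given a single location, so counts of near-identical genes are uncertain. Whether strand was used in counting is not given in the sources used here.

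Groups and replicate numbers came from the labels, and doses and times from the labels and the study's methods. For unpulsed cells the LPS dose is not given there. All 12 columns were used. Gene names, exon lengths and positions came from GENCODE M21 on GRCm38, which named 55141 of the 55401 genes. It is not the annotation the counts were made with. Genes that exceeded a log2 CPM of 0 in 2 libraries or more were tested with edgeR 4.0.16 in R 4.3.3 (TMM, quasi-likelihood test, Benjamini-Hochberg over 14079 genes, adjusted p under 0.05). All 12 libraries were fitted with group and replicate number as terms, following the covariate that the study's methods give. The common dispersion was 0.00590. Ratios were taken on counts per kilobase within a library and tested by exact permutation (Python 3.11.15, numpy 2.4.6, pandas 2.3.3). Promoter windows came from RefSeq on GRCm38.p6. Each test was first tried on simulated data.

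The 10 genes and the 4 lists were chosen with earlier results of these data known. All 10 genes and Siglece are named, and at most 5 genes of each list by largest absolute log2 fold change with OVA, of which 1 is not reported here. Psmb5, Psmb6 and Psmb7 are named for the ratios, the genes most like the 10 by correlation over the 12 libraries, and Bst2 and Siglech as markers. Mrc1 and Clec9a, named with their values known, lie outside these rules. Alternatives run were DESeq2 1.42.0, limma voom (limma 3.58.1), a newer quasi-likelihood fit, RLE and upper-quartile normalization, no filter, 10 counts in every library, no replicate block, the compared libraries alone, stricter limits, and leaving out each library or replicate number. The chi-square per degree of freedom between replicates was 4.29 or more, so none was a duplicate library. In EKO-labelled cells it was 21.8 to 38.3 for pairs with replicate 1, and 6.49 and 10.2 for replicates 2 and 3. In unpulsed CtrV cells it was 20 and 21.8 for pairs with replicate 3, and 4.29 for replicates 1 and 2. OVA-pulsed CtrV cells had 6.9 to 17.9.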

Additional observations from a re-analysis of the deposited data

How the results depend on the processing

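Without the replicate block, 8 of the 10 genes were higher with OVA and 8 without, as in the fit with it, and the genes called in the whole table went from 6619 to 5413 with OVA and from 6537 to 5337 without. Deviations of same-numbered libraries of the lines had correlations of 0.448, 0.292 and 0.289 with OVA and 0.0602, -0.0118 and 0.263 without, so the numbers mark shared deviations in the first state and not in every pair of the second. Across the fits that leave out 1 library or 1 replicate number, 6 to 9 genes were higher with OVA and 6 to 8 without, and the calls that changed were those of H2-D1, B2m and Tapbp. When an absolute log2 fold change of at least 1 was also required, 4 genes passed in each state, and 1268 and 1241 genes in the whole table, since the limit itself removes smaller changes. With an adjusted p under 0.01 the 10 genes gave 7 and 6 calls. H2-K1, Tap1, Psmb9 and Nlrc5 were called in all 26 alternatives of both states, and none of the 10 was called lower in any. Tapbp lost its call in 10 of the 26 with OVA and 17 without. All 6 ratios kept their direction under the 17 alternatives run on each, among them the states taken alone and both states of a line and number taken as 1 unit (chosen after seeing the data), where the smallest exact p is 0.1. The lowest count of any of the 10 genes in a library was 635 (Nlrc5), far above the floor of 3, so that depth did not limit their detection. The cause of the lost calls was not tested.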

Other observations

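Of 13 genes of cross-presentation, 11 were tested. With OVA 3 were higher, 2 lower and 6 not called in EKO-labelled cells, beside 25.1% higher and 21.9% lower among all genes tested. Without OVA 3 were higher, 3 lower and 5 not called, beside 24.5% and 21.9%. The median log2 fold change of the list was 0.04 with OVA and 0.07 without. The small GTPase Rab27a rose by 0.73 with OVA (adjusted p = 0.0368, edgeR's quasi-likelihood test, adjusted by Benjamini-Hochberg), from 3.49 to 4.38 CPM to 5.24 to 9.78 CPM, and it did not pass the test without OVA (log2 0.60, adjusted p = 0.0822). Ifi30, a thiol reductase of the endocytic route, fell by 0.72 (adjusted p = 0.0146), from 40.5 to 44.2 CPM to 18.1 to 36.8 CPM. Irgm2, an immunity-related GTPase, rose by 0.58 (adjusted p = 0.00906), and Wdfy4, which cross-presenting DCs need, fell by 0.33 (adjusted p = 0.0174). Wdfy4 did not pass the test without OVA (log2 -0.12, adjusted p = 0.355). Cybb, the catalytic subunit of the phagosomal NADPH oxidase, had a log2 fold change of 0.29 that did not pass the test with OVA (adjusted p = 0.108), and it rose by 0.51 without OVA (adjusted p = 0.0119). The test for a dependence on OVA called 0 of 14079 genes. A call in 1 state alone, as for Rab27a, Wdfy4 and Cybb, is therefore no evidence that the states differ. The mannose receptor gene Mrc1 had 0 counts in every library, and Clec9a had at most 1. The paper describes less mannose receptor on EKO than on control cells, and these mRNA counts do not measure receptor on cells.

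Among 13 sequence relatives of the class I heavy chains, 12 were tested, and in each state 6 were higher and 1 was lower in the EKO-labelled libraries, beside 25.1% higher and 21.9% lower among all genes tested with OVA and 24.5% and 21.9% without. The median log2 fold change of the 12 was 0.46 with OVA and 0.64 without. H2-M2 fell by 2.16 with OVA (SE 0.20, adjusted p = 1.0e-05, edgeR), from 3.65 to 4.51 CPM to 0.676 to 1.05 CPM. H2-T24 rose by 2.14 (SE 0.47, adjusted p = 0.0035), from 2.02 to 6.13 CPM to 12.5 to 18.2 CPM. H2-Q6 and H2-Q7 rose by 1.43 and 1.25 (adjusted p = 0.00794 and 0.00421), and H2-T10 rose by 0.70 (adjusted p = 0.00433). Reads of such relatives can fit several genes, so the split of counts among them is uncertain.

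The genes whose log2 CPM was most like the mean of the 10 standardized genes over the 12 libraries were H2-T23 (Pearson correlation 0.992), H2-T10 (0.986), Ms4a4c (0.986), H2-T22 (0.986) and Rnf114 (0.985). After the group means were taken out they were Rab8a (0.965), H2-Q4 (0.964), H2-T23 (0.960), Arid5a (0.960) and Selenow (0.959). H2-T23 was in both sets.

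Bst2, listed as a marker of plasmacytoid DCs and itself an interferon-inducible gene, was between 66.9 and 125.0 CPM in CtrV libraries and between 153.5 and 278 CPM in EKO-labelled ones, while Siglech, the defining marker of that list, was at most 0.332 CPM in CtrV libraries and at most 0.110 CPM in EKO-labelled ones.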
